A study of Mus musculus with 16 samples.

Results

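The genes described here are 53 genes of the lysosome, taken by symbol from the rows of 55426 genes measured in whole mouse ovaries. They comprise 22 acid hydrolases, 4 soluble proteins of the lysosome lumen that are not hydrolases, 9 membrane proteins and channels, 3 transcription factors of the TFE family and 15 subunits of the proton pump. The libraries came from C57BL/6NHsd females in 4 groups of 4 biological replicates, with 1 ovary per mouse, collected in diestrus. The On T mice received 0.9 mg of testosterone enanthate in sesame oil under the skin once a week. Their treatment lasted 6 weeks and ended with collection at an age of 16 weeks, and the Control for On T mice of the same age received the oil alone. The Post T mice received the same 6 weeks of testosterone in a separate cohort, were left to resume cycling and were collected after 4 estrous cycles, and the Control for Post T mice received oil alone. Mice of both groups of that cohort were 24 to 28 weeks old. All groups carried the same strain background and received injections. The model gives testosterone to female mice in a transgender therapy setting, and the comparisons ask how the ovary differs during treatment and after it has ended.

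Lysosomes are acidic organelles in which hydrolases digest proteins, sugars and lipids delivered by endocytosis, phagocytosis and autophagy. A proton pump, the V-ATPase, acidifies them: its V1 sector hydrolyses ATP in the cytosol and its V0 sector carries protons across the membrane. TFEB, TFE3 and MITF are transcription factors that move into the nucleus when lysosomes are stressed or nutrients are scarce, and bind short promoter motifs in many lysosomal genes. In the ovary, lysosome-rich cells include macrophages, which take up regressing corpora lutea and atretic follicles, and the luteal cells themselves.

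The libraries held 26598055 to 52659637 expected counts, and 0 pairs of libraries were identical. All 53 members passed the filter on low counts, and 18833 genes were tested. Levels below are CPM, counts scaled to library size with TMM factors, unless they are called TPM, which corrects for gene length and is used to compare genes with each other. Adjusted p values are from edgeR's quasi-likelihood test over all genes tested unless another tool is named, a call is an adjusted p below 0.05, and each log2 fold change is the testosterone group minus its own controls. Ovarian identity was checked on marker lists: summed luteal markers were at 8367 to 9418 TPM in the Control for On T libraries and at 3893 to 6834 in the On T libraries, whereas the sums of granulosa, theca, oocyte, endothelial, surface epithelium, oviduct, mast cell and adipocyte markers overlapped between each testosterone group and its controls. Control for Post T library 1, the one with the fewest counts, lay apart from the other controls of its group for several members. In these bulk samples fewer cells of a type and less RNA per cell cannot be told apart.

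After washout, most of the lysosomal genes were above the controls, among them 11 of 22 hydrolases, 8 of 9 membrane proteins and channels and 8 of 15 pump subunits. For the TFE factors the calls of Tfeb and Tfe3 were lost in 6 and 4 of the 8 fits that left out 1 library of that cohort. Both calls were also lost with limma on TPM, and the class overlapped its controls in summed TPM (37 to 49.5 in controls and 45.4 to 55 Post T). In Post T ovaries 31 of 53 members rose (58.5%), against 7.49% of all genes tested, and 2 fell, against 4.81% of all genes. The median log2 fold change over the members was 0.43, beside -0.010 over all genes tested. The Post T libraries lay entirely above their controls for 32 members, where 9.62% of all genes did so. Of the 31 that rose, 6 rose by more than 1 on the log2 scale and 25 by less, so the typical shift was modest and a few genes stood far above it.

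During treatment few members were called. In On T ovaries 3 members rose (5.66%), against 4.24% of all genes, and 4 fell, against 5.03% of all genes, with a median log2 fold change of 0.0069 over the members. The 3 that rose, Mcoln2, Mcoln3 and Atp6v0d2, also rose Post T. Of the 4 that fell, Gm2a and Arsb also fell Post T, and Lgmn and Atp6v1h passed no test there. With DESeq2, 6 members were called higher On T (11.3%), against 6.33% of all genes, and with limma on log2(TPM + 1) 3 were, against 2.61% of all genes. DESeq2 called 5 lower On T (9.43%), against 6.13% of all genes, and limma called 6 lower (11.3%), against 3.33% of all genes. By edgeR, 28 members were called higher Post T and not called On T, which is a split of calls and not a test of the difference. In the test of the difference given below, 19 members called higher Post T were also called. The shares of all genes for these counts were not taken.

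**Figure D1:**
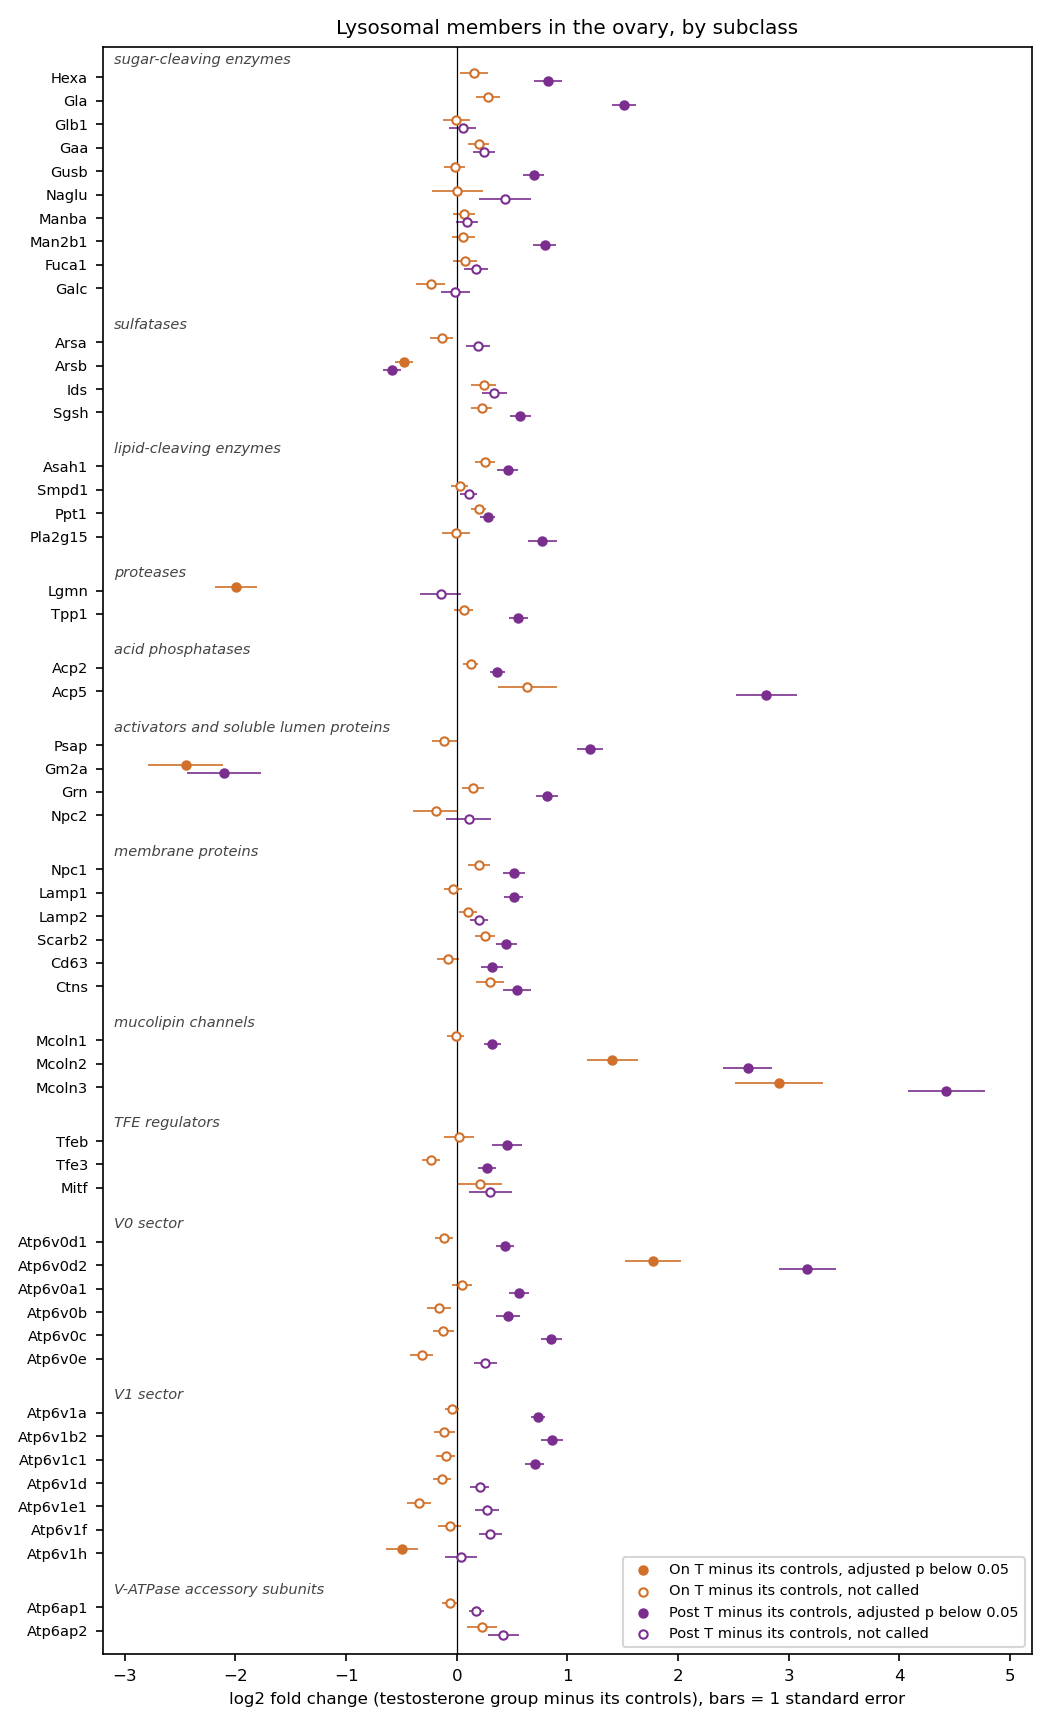
Log2 fold change (x axis) of each of the 53 members (y axis, grouped by subclass) for On T (orange) and Post T (purple) against their own controls; bars are 1 standard error and filled points have an adjusted p below 0.05. Post T points lie mostly to the right of 0, with 31 members called higher, and On T points mostly near 0, with Mcoln2, Mcoln3 and Atp6v0d2 to the right and Lgmn and Gm2a to the left.

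The promoters of the members were searched for CACGTG, the core of the motif that TFE factors bind, because these genes are known as a group with shared promoter motifs. RefSeq promoters (GRCm38.p6, 250 bases before to 50 after a start) matched 47 members, and 6 members, Asah1, Atp6v0d2, Atp6v1b2, Atp6v1c1, Atp6v1h and Npc1, were not in the table. The core reads the same on both strands. It occurred in 14 of the 47 members (29.8%) and in 8.09% of the 27025 genes of the table, and its longer form TCACGTGA, which contains the core, in 5 members (10.6%) and 1.12% of genes. GTCACGTGAC, which contains both, was in 0 of the 47 and in 0.37% of genes. Within the members, the core was found in 8 of 26 that rose Post T (30.8%), in 6 of 19 that were not called (31.6%) and in neither of the 2 that fell. TCACGTGA was in 4 of the 26 (15.4%), 1 of the 19 (5.26%) and 0 of the 2, and whether these shares differ was not tested. The stretches around the cores are shown for members with 2 or more cores and for a pump subunit and a channel that rose Post T, Atp6v1a and Mcoln2, followed by 2 that were not called, 5′ to 3′ in the direction of the gene, with each core in capitals.
Lamp1, chr8:13159075-13159160, plus strand: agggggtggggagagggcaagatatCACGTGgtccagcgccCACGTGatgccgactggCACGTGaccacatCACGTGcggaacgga
Gla, chrX:134601169-134601255, minus strand: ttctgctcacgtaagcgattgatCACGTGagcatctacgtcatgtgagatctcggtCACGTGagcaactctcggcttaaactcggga
Mcoln1, chr8:3500423-3500504, plus strand: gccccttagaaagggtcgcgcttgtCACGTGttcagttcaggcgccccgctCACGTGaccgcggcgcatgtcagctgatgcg
Atp6v0b, chr4:117887330-117887390, minus strand: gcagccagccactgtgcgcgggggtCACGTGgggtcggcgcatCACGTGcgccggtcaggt
Atp6v1a, chr16:44139360-44139415, minus strand: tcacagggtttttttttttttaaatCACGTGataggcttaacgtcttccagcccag
Mcoln2, chr3:146150077-146150132, plus strand: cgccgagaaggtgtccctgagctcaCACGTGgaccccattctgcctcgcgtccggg
Glb1, chr9:114401005-114401060, plus strand: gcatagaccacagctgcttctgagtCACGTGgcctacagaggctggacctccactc
Naglu, chr11:101069996-101070051, plus strand: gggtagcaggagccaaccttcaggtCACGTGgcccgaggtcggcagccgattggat
Lamp1 carried 4 cores and Gla, Mcoln1 and Atp6v0b 2 each. A match is a description of the letters only, and Glb1 and Naglu, which hold a core of the same letters, were not called in either comparison.

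Among the 10 sugar-cleaving hydrolases, 4 rose Post T: Gla, Hexa, Man2b1 and Gusb. Gla encodes alpha-galactosidase A, the enzyme that removes terminal galactose from globotriaosylceramide. Its level was 19, 17.1, 17.4 and 14.8 CPM in the 4 Control for Post T libraries and 47.9, 47.9, 51.3 and 47.5 in the Post T libraries. The groups were separated by a wide gap and the 4 Post T values were nearly equal, giving a log2 fold change of 1.51 (SE 0.11, adjusted p = 1.66e-07). On T libraries were at 20.6, 17.3, 22.5 and 18.3 CPM and their controls at 16.8, 13.5, 18.6 and 15.9, which overlapped (log2 0.28, SE 0.11, adjusted p = 0.129). Hexa encodes the alpha subunit of beta-hexosaminidase, which cleaves GM2 ganglioside. It was at 169.8, 146, 159 and 129 CPM in the controls and at 251, 255, 321 and 244 Post T. Every Post T library lay above every control, and library 3 was the highest, with a log2 fold change of 0.83 (SE 0.13, adjusted p = 0.000246). In the younger cohort, Hexa was at 165, 120.5, 144 and 128 CPM in controls and at 175, 133, 140.5 and 174 On T, with overlapping groups. Man2b1, lysosomal alpha-mannosidase, rose Post T by 0.79 (SE 0.10, adjusted p = 4.89e-05). Gusb, beta-glucuronidase, rose by 0.70 (SE 0.10, adjusted p = 7.2e-05).

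Glb1 was not called in either cohort. It encodes the acid beta-galactosidase behind the senescence-associated staining reaction. Its levels were 58.5, 53, 58.6 and 54.3 CPM in the Control for On T libraries and 61.4, 41.6, 55.5 and 65.5 On T. The older controls were at 68.8, 53.1, 54.5 and 55.8 and the Post T libraries at 65.1, 56.6, 64.1 and 55.1. All 4 groups overlapped, with log2 fold changes of -0.0027 (SE 0.12, adjusted p = 0.994) On T and 0.054 (SE 0.12, adjusted p = 0.861) Post T. The 5 other sugar-cleaving enzymes that were not called Post T had log2 fold changes from -0.011 for Galc, which cleaves galactosylceramide, to 0.44 for Naglu, an enzyme of heparan sulfate breakdown. Naglu did not overlap between Post T and its controls but had a wide error (SE 0.23, adjusted p = 0.29).

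The 4 sulfatases went different ways. Sgsh, the sulfamidase of heparan sulfate breakdown, rose Post T by 0.57 (SE 0.094, adjusted p = 0.000435). Arsb, which removes sulfate from dermatan and chondroitin sulfate, fell in both cohorts. It was at 129, 133, 117 and 128 CPM in the younger controls and at 83.4, 93, 96 and 91.3 On T. In the older cohort it was at 122, 124, 129 and 145 CPM in controls and at 97.6, 84.4, 78.1 and 87 Post T. No testosterone library of either cohort reached its lowest control. The fall was 0.48 (SE 0.082, adjusted p = 0.00129) on the log2 scale On T and 0.58 (SE 0.082, adjusted p = 9.03e-05) Post T, and the difference of these effects was -0.11 (SE 0.12, adjusted p = 0.75). Ids, iduronate sulfatase, was 0.34 Post T (adjusted p = 0.0613) and Arsa, arylsulfatase A, 0.20 (adjusted p = 0.306), neither past the threshold. The annotation places genes on the opposite strand over 39.9% of the exon bases of Arsb, 21.6% of Sgsh and 18.8% of Arsa, and over 11.8% to 12.8% for Hexa, Acp2 and Atp6v0b. Whether the counting used strand is not given in the sources used here, so reads of such overlaps may be shared.

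Of the 4 lipid-cleaving enzymes, 3 rose Post T. Pla2g15, the lysosomal phospholipase A2, rose most, by 0.77 (SE 0.13, adjusted p = 0.000496). Asah1, acid ceramidase, rose by 0.46 (SE 0.093, adjusted p = 0.0027), and Ppt1, palmitoyl-protein thioesterase, by 0.28 (SE 0.068, adjusted p = 0.0101). Smpd1, acid sphingomyelinase, was not called, at 0.11 (SE 0.079, adjusted p = 0.47). The call of Ppt1 was lost on the log2(TPM + 0.1) scale with limma and in a fit of the 8 older-cohort libraries alone (adjusted p up to 0.0755).

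Of the 2 proteases, Tpp1, tripeptidyl peptidase, rose Post T by 0.56 (SE 0.085, adjusted p = 0.000221), and Lgmn, the asparaginyl endopeptidase legumain, followed another course. Lgmn was at 240.4, 413, 275 and 414 CPM in the younger controls and at 91.9, 86.3, 68 and 91 On T. The highest On T library was below the lowest control by a wide margin. This fall was 1.99 (SE 0.19, adjusted p = 5.71e-06) on the log2 scale. In the older cohort the controls were at 261, 235, 279.7 and 384 CPM and the Post T libraries at 246, 251, 321 and 231, which overlapped (log2 -0.14, SE 0.19, adjusted p = 0.733). The difference of the effects was 1.85 (SE 0.26, adjusted p = 0.000865).

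Both acid phosphatases rose Post T, by unequal amounts. Acp5, tartrate-resistant acid phosphatase, is a classic enzyme of osteoclasts and of some macrophages. It was at 11.7, 12.7, 21.3 and 9.3 CPM in the older controls and at 87.5, 86.6, 134 and 74.4 Post T. Library 3 was the highest of its group, and the lowest Post T library was above every control of either cohort. The log2 fold change was 2.8 (SE 0.27, adjusted p = 2.39e-06). On T it was at 13.7, 14, 8.35 and 14.5 CPM, with controls at 9.35, 5.26, 10.6 and 7.22. The groups overlapped because On T library 3 was low (log2 0.64, SE 0.27, adjusted p = 0.168). Acp2, the housekeeping lysosomal acid phosphatase, rose Post T by 0.37 (SE 0.066, adjusted p = 0.000999).

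Psap was the most abundant member in TPM and carried much of the added lysosomal RNA. It encodes prosaposin, the precursor of 4 saposins that present sphingolipids to their hydrolases. Its level was 2130.4, 1941, 2279 and 2071 CPM in the older controls and 4678, 4687, 5973 and 4126 Post T. All Post T libraries were far above the controls, and library 3 was the highest. The rise was 1.21 (SE 0.12, adjusted p = 2.15e-06) on the log2 scale. In the younger cohort it was at 1769, 1846, 1765 and 1709.9 CPM in controls and at 1689, 1801, 1343 and 1731 On T, with On T library 3 low and the groups overlapping. Summed over all 53 members, the mean level went from 5789 TPM in Control for Post T to 8492 TPM Post T, and Psap made up 53.2% of that gain. Psap took 19.9% ± 1.25 of the members' summed TPM in the older controls and 30.4% ± 1.85 Post T (SD, n = 4).

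Grn encodes progranulin, a secreted and lysosomal glycoprotein that is split into granulins. It was at 187, 212, 198 and 201 CPM in the older controls and at 345, 330.1, 415 and 315 Post T. The groups were apart, with a log2 fold change of 0.82 (SE 0.10, adjusted p = 2.7e-05). On T libraries were at 227, 204, 206 and 255 CPM and their controls at 209, 179, 224 and 194, which overlapped.

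Gm2a fell in both cohorts while Hexa, the enzyme it serves, did not. Gm2a encodes the GM2 activator, which lifts GM2 ganglioside out of membranes for beta-hexosaminidase. It was at 390.4, 1048, 328 and 859.6 CPM in the younger controls and at 124, 138, 106 and 112 On T. The controls varied widely among themselves, and every On T library was below the lowest of them. The older controls were at 933, 454, 674 and 1249 CPM and the Post T libraries at 182, 186, 212 and 189.8, again without overlap. The fall was 2.45 (SE 0.34, adjusted p = 0.000208) on the log2 scale On T and 2.1 (SE 0.33, adjusted p = 0.000306) Post T. Among luteal markers, 6 of 9 fell On T, against 5.03% of all genes, and 5 of 9 Post T, against 4.81%. The 9 ranged in log2 fold change from -7.78 to -0.183 On T, with a median of -2.09. Post T they ranged from -9.39 to -0.0211, with a median of -0.984. The marker that fell most was Akr1c18, the progesterone-degrading enzyme of regressing corpora lutea. It was at 141 ± 35.3 CPM in the younger controls and 0.643 ± 0.268 On T, and at 139 ± 21 in the older controls and 0.207 ± 0.0679 Post T (SD, n = 4). The summed luteal marker level did not overlap between On T and its controls but did between Post T (4097 to 7600 TPM) and its controls (6784 to 12250). The part of these levels in the values of Gm2a and Lgmn was not tested.

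Npc2, which carries cholesterol inside the lysosome, was not called in either cohort. It was at 583, 249, 306 and 417 CPM in the older controls and at 393, 418, 478 and 386 Post T. The controls spread widely, with library 1 highest, and enclosed the Post T values (log2 0.11, SE 0.20, adjusted p = 0.827). The younger controls were at 241, 342, 227 and 296 CPM and the On T libraries at 259.8, 256, 205 and 250.4.

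**Figure D2:**
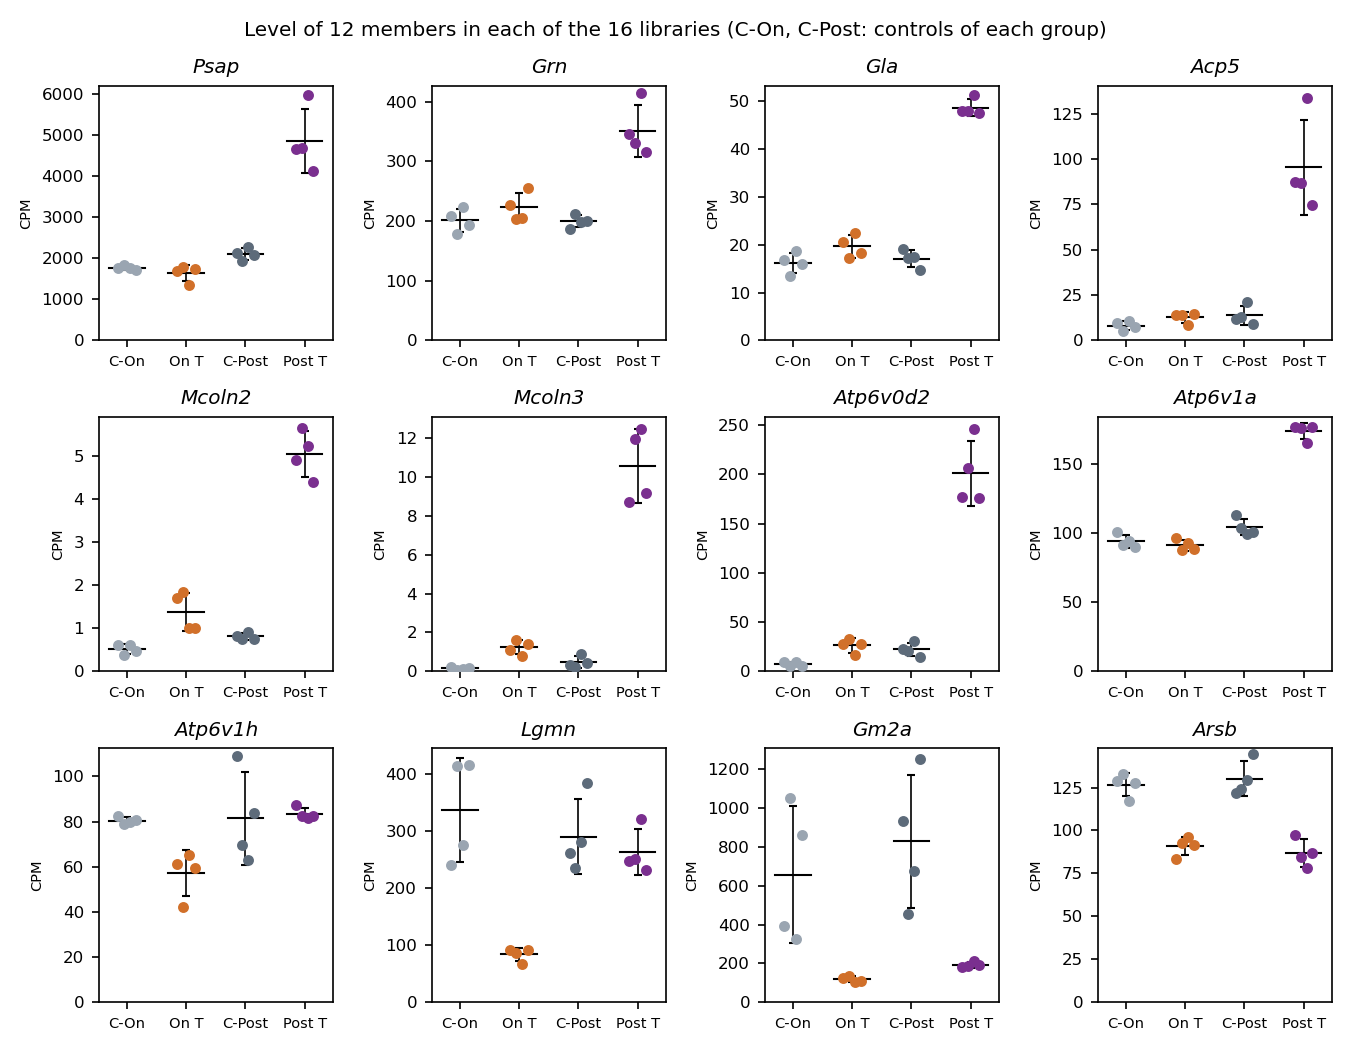
CPM (y axis, from 0) of 12 members in each of the 16 libraries (points), by group (x axis; C-On and C-Post are the controls of On T and Post T), with the group mean and SD in black. Psap, Grn, Gla, Acp5, Mcoln2, Mcoln3, Atp6v0d2 and Atp6v1a are higher in all 4 Post T libraries than in their controls, Atp6v1h and Lgmn are lower On T and overlap their controls Post T, and Gm2a and Arsb are lower in both testosterone groups.

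Of the 6 membrane proteins, 5 rose Post T within a narrow range of log2 fold changes, 0.32 to 0.55. Npc1 hands cholesterol from Npc2 to the lysosomal membrane. It was at 57.5, 81.2, 76 and 64.5 CPM in the older controls and at 94.6, 108, 109 and 89.8 Post T, without overlap (log2 0.52, SE 0.10, adjusted p = 0.00185). In the younger cohort Npc1 was at 63.7, 63.5, 62.7 and 61.2 CPM in controls and at 73.2, 71.5, 65.3 and 78.6 On T, also without overlap but not called (log2 0.20, SE 0.10, adjusted p = 0.256). Lamp1, one of the main glycoproteins lining the lysosome, was at 635, 563, 613 and 603 CPM in controls and at 805, 849, 999.8 and 794 Post T. All Post T libraries were higher, library 3 by the most, and the log2 fold change was 0.51 (SE 0.084, adjusted p = 0.000398). The younger cohort had Lamp1 at 574, 547, 540.3 and 534 CPM in controls and at 552, 553, 493 and 550.1 On T, with On T library 3 the lowest. Its relative Lamp2 was not called, at 0.20 (SE 0.082, adjusted p = 0.144). Ctns, which exports cystine, was at 13.4, 16.1, 16 and 14.9 CPM in the older controls and at 19.7, 21.1, 26.8 and 20.6 Post T, with no overlap (log2 0.55, SE 0.13, adjusted p = 0.00839). On T it was at 16.6, 18.6, 12.5 and 17.8 CPM and in the younger controls at 13.5, 11.7, 14.3 and 13.7, where On T library 3 fell among the controls. Without that library, Ctns was called On T (log2 0.42, adjusted p = 0.0377), against 0.30 (SE 0.13, adjusted p = 0.173) with it.

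Scarb2 and Cd63 rose with less certainty. Scarb2, the receptor that brings glucocerebrosidase to the lysosome, rose Post T by 0.45 (SE 0.094, adjusted p = 0.00349) but was not called with limma on TPM (adjusted p up to 0.0748). Cd63 is a tetraspanin of late endosomes. It was at 380.3, 339, 367 and 313 CPM in the older controls and at 423, 461, 469 and 395 Post T. The gap between the groups was small (log2 0.32, SE 0.10, adjusted p = 0.0424). The call was lost without Control for Post T library 2 or 4, or without Post T library 2 or 3 (adjusted p 0.0768 to 0.141). It was also lost with limma on TPM, without the filter on low counts, in a fit of the 8 older-cohort libraries alone and with a replicate block. The younger controls were at 350.4, 373, 355 and 379.6 CPM and the On T libraries at 407, 334, 292 and 347, which overlapped.

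The mucolipins, cation channels that release calcium from lysosomes, held the largest fold change of all members. Mcoln3 was at 0.238, 0.0679, 0.128 and 0.184 CPM in the younger controls and at 1.12, 1.64, 0.809 and 1.39 On T. In the older cohort it was at 0.351, 0.219, 0.918 and 0.443 CPM in controls and at 8.68, 11.9, 12.4 and 9.14 Post T. No testosterone library overlapped its controls in either cohort. The rise was 2.91 (SE 0.40, adjusted p = 0.000197) On T and 4.42 (SE 0.35, adjusted p = 2.96e-07) Post T, and the younger controls rest on 11, 2, 5 and 7 counts per library. Mcoln2 was at 0.605, 0.373, 0.613 and 0.474 CPM in the younger controls and at 1.69, 1.83, 1.01 and 1.01 On T. The older controls had 0.818, 0.749, 0.918 and 0.762 CPM and the Post T libraries 4.92, 5.65, 5.23 and 4.4. It was again separated from its controls in both cohorts, with a rise of 1.41 (SE 0.23, adjusted p = 0.000936) On T and 2.63 (SE 0.22, adjusted p = 5.37e-07) Post T. Both genes lie on chromosome 3, plus strand, of GRCm38, Mcoln3 from 146117450 to 146141806 and Mcoln2 from 146149833 to 146195513.

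Mcoln1, the ubiquitous member of the family, rose least of the 3 Post T. It was at 29.7, 31.2, 32.2 and 30.4 CPM in the older controls and at 36.8, 36.6, 43.5 and 37.6 Post T. The groups were just apart, at a log2 fold change of 0.32 (SE 0.074, adjusted p = 0.00757). The younger controls were at 27.4, 26.9, 30.2 and 29 CPM and the On T libraries at 27, 28.5, 27.3 and 29.95, which overlapped. In the deposited TPM, Mcoln1 was at 28.9 ± 5.11 in the older controls and 30.7 ± 2.17 Post T (SD, n = 4), and limma on these values did not call it (adjusted p up to 0.751). Mcoln2 and Mcoln3 together made up 2.53, 1.32, 2.63 and 3.48% of the mucolipin TPM in the younger controls and 9.44, 9.53, 8.09 and 5.69% On T. The share was 3, 1.85, 4.86 and 2.83% in the older controls and 23.4, 29.8, 25.8 and 22.1% Post T. The testosterone groups lay above their controls in both cohorts, and Mcoln1 remained the most abundant mucolipin in each library.

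Of the TFE factors, Tfeb and Tfe3 rose Post T, with calls that depended on single libraries and on the method. Tfeb was at 16.2, 17, 16.5 and 16.5 CPM in the older controls and at 17.9, 23.7, 29.3 and 19.8 Post T. The Post T libraries were all higher and spread widely (log2 0.45, SE 0.14, adjusted p = 0.0365). The call of Tfeb was lost without any 1 of the 4 older controls, or without Post T library 2 or 3 (adjusted p 0.0594 to 0.136). It was also lost with limma on TPM, in a fit of the 8 older-cohort libraries alone and with a replicate block (adjusted p up to 0.213). Tfe3 was at 45.1, 60.2, 51.6 and 49 CPM in the older controls and at 61.4, 66.3, 62.1 and 59.1 Post T. Control library 2 overlapped the Post T values (log2 0.27, SE 0.081, adjusted p = 0.036), and the call was lost without Control for Post T library 1 or 4, or without Post T library 2 or 3 (adjusted p 0.0586 to 0.107). The call of Tfe3 was also lost with limma on TPM, without the filter on low counts and in a fit of the 8 older-cohort libraries alone (adjusted p up to 0.326). Mitf was at 9.7, 18, 15.8 and 10.9 CPM in the older controls and at 13.9, 21.6, 16.9 and 14.8 Post T, which overlapped (log2 0.30, SE 0.20, adjusted p = 0.408).

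The 3 factors did not pass the test On T. Tfeb was at 13, 12.6, 12.9 and 13.1 CPM in the younger controls and at 12.5, 15.8, 10.8 and 13.1 On T. Tfe3 was at 49.4, 49.98, 53.4 and 51.3 CPM in controls and at 41.7, 44.3, 45.9 and 42 On T, all 4 lower but not called (log2 -0.23, SE 0.081, adjusted p = 0.0918). Mitf was at 12.7, 10.2, 12.2 and 9.19 CPM in controls and at 13, 14.7, 9.71 and 14 On T. Only Tfe3 had an On T group apart from its controls. Melanocyte markers were below 1 TPM in sum in every library, and which cells held the Mitf RNA was not tested. These values are RNA levels of the factors and say nothing of where their proteins were in the cell.

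Of the 15 proton pump subunits, 8 rose Post T, 5 of 6 in the V0 sector and 3 of 7 in the V1 sector. The 2 accessory subunits, Atp6ap1 and Atp6ap2, did not pass the test, at log2 0.18 (SE 0.068, adjusted p = 0.111) and 0.42 (SE 0.14, adjusted p = 0.058). For Atp6ap2, Control for Post T library 1 was at 115 CPM and the other 3 controls between 67.6 and 69.6, while the Post T libraries were at 105, 106, 107 and 109.8. The V1 subunits that rose were Atp6v1a and Atp6v1b2, which form the ATP-hydrolysing ring, and Atp6v1c1, which couples the sectors. Atp6v1a was at 113, 104, 99.7 and 101 CPM in the older controls and at 177, 176, 165 and 177 Post T. The groups were far apart relative to their spread (log2 0.73, SE 0.066, adjusted p = 9.26e-07). On T libraries had 96.2, 87.9, 93.1 and 88.3 CPM and their controls 101, 91.3, 94 and 90.2, which overlapped. Atp6v1b2 rose Post T by 0.86 (SE 0.10, adjusted p = 7.88e-06) and Atp6v1c1 by 0.70 (SE 0.086, adjusted p = 2.13e-05).

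The V1 subunits that were not called Post T were Atp6v1d, Atp6v1e1, Atp6v1f and Atp6v1h, with log2 fold changes from 0.038 to 0.30. For Atp6v1d, Control for Post T library 1 was at 65.3 CPM and the other controls between 51 and 53. All 7 V1 subunits had a negative log2 fold change On T, and 1 passed the test: Atp6v1h, the subunit that regulates coupling, which fell by 0.49 (SE 0.15, adjusted p = 0.0421). It was at 82.2, 78.7, 79.9 and 80.7 CPM in the younger controls and at 61.3, 42.3, 65.1 and 59.6 On T. On T library 2 was the lowest, and no On T library reached a control. The call did not hold without any 1 of the 4 Control for On T libraries or without On T library 1, 2 or 4 (adjusted p 0.0745 to 0.107). On T library 2 was the lowest of its group for 24 of the 53 members, among them all 10 sugar-cleaving enzymes, and On T library 3 for 22. Granulosa cell markers summed to 1952 TPM in On T library 2 and to 5112 to 7000 TPM in the other On T libraries, and their part in these values was not tested.

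In the V0 sector, both forms of the d subunit rose Post T. Atp6v0d1 encodes the ubiquitous d subunit and Atp6v0d2 the form known from osteoclasts, kidney and macrophages. Atp6v0d2 was at 9.66, 5.73, 9.71 and 5.48 CPM in the younger controls and at 27.8, 33.3, 16.4 and 27.8 On T. It was at 22.9, 20.3, 31.4 and 15.1 CPM in the older controls and at 177, 206, 246 and 176 Post T. Every testosterone library was above all its controls, and Post T libraries were several times above every other group. The rise was 1.78 (SE 0.25, adjusted p = 0.000282) On T and 3.17 (SE 0.26, adjusted p = 3.74e-07) Post T. Atp6v0d1 was at 78.1, 73.9, 71.3 and 75.4 CPM in the older controls and at 97.9, 96.6, 119 and 91.1 Post T, a smaller rise without overlap (log2 0.44, SE 0.079, adjusted p = 0.000953). In the younger cohort Atp6v0d1 was at 75.7, 75.3, 76.7 and 75.6 CPM in controls and at 73.8, 68.1, 65 and 72.8 On T. These values did not overlap, with On T lower, but were not called (log2 -0.12, SE 0.078, adjusted p = 0.423).

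In TPM, Atp6v0d2 went from the minor to the major d subunit. Its share of the TPM of both d subunits was 7.14, 4.37, 7.06 and 4.17% in the younger controls and 18.4, 22.6, 13.1 and 18.7% On T. It was 15, 14.1, 20.8 and 10.7% in the older controls and 52, 55.9, 55.5 and 53.6% Post T. The share was above its controls in every testosterone library and passed that of Atp6v0d1 in each Post T library, at a mean of 54.3% ± 1.82 (SD, n = 4). The other V0 subunits that rose were the proteolipids of the rotor, Atp6v0c by 0.85 (SE 0.094, adjusted p = 7.88e-06) and Atp6v0b by 0.46 (SE 0.11, adjusted p = 0.00889), and the a subunit Atp6v0a1 by 0.57 (SE 0.090, adjusted p = 0.000321). Atp6v0e, a small membrane subunit, was not called (log2 0.26, SE 0.10, adjusted p = 0.138), and its highest control was again Control for Post T library 1, at 98.4 CPM against 68.1 to 72.1 in the others.

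**Figure D3:**
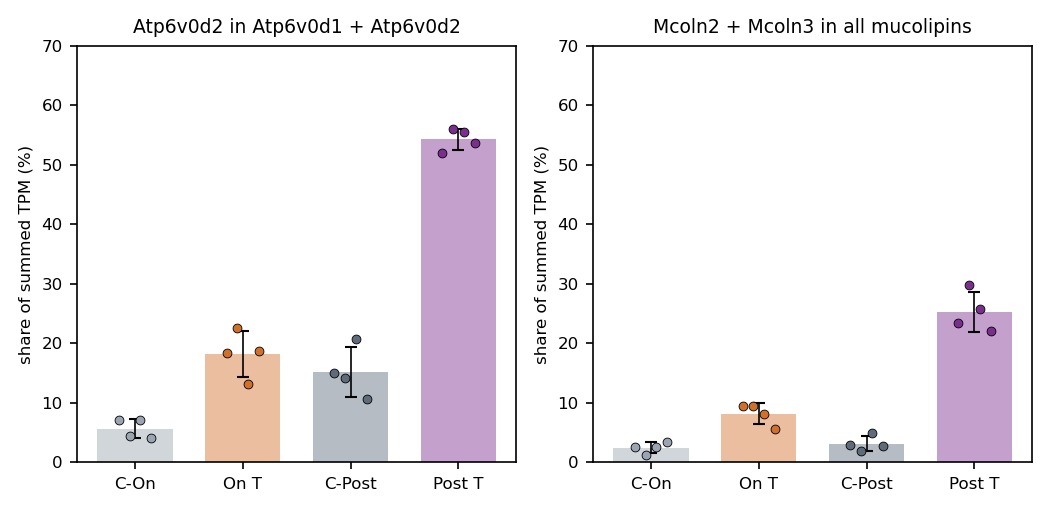
Share in percent of the summed TPM (y axis, from 0) of Atp6v0d2 among both d subunits (left) and of Mcoln2 and Mcoln3 among the 3 mucolipins (right), by group; bars are means, error bars SD and points the 4 libraries. Post T libraries reach 52 to 55.9% on the left and 22.1 to 29.8% on the right, above every other library.

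The effect after washout was compared with the effect during treatment as a contrast of its own. The Post T effect was above the On T effect for 22 members (41.5%), against 2.93% of all genes, and below it for 0 members by edgeR, against 0.324% of all genes. At an unadjusted p below 0.05 the count below was also 0, against 5.06% of all genes. DESeq2 and limma on log2(TPM + 1) gave 0 too, where they called 1.15% and 0.388% of all genes, shares so low that a count of 0 among 53 members says little. The difference was positive for 52 of 53 members, with a median of 0.43 on the log2 scale. Time since the last injection, age and cohort differ together between these contrasts and cannot be told apart.

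The proton pump contributed 10 of its 15 subunits to these 22 genes, 7 of the 22 hydrolases were among them, and 2 of the 9 membrane proteins and channels. Atp6v1a had a difference of 0.78 (SE 0.093, adjusted p = 0.000509), Psap of 1.32 (SE 0.16, adjusted p = 0.000632) and Gla of 1.23 (SE 0.15, adjusted p = 0.000632). Acp5 had the largest, 2.16 (SE 0.38, adjusted p = 0.00332). All 6 V0 subunits were called, from 0.52 for Atp6v0a1 to 1.39 for Atp6v0d2. These V0 calls were close to the threshold for 4 of the 6: Atp6v0e lost its call in 15 of the 16 fits that left out 1 library, Atp6v0a1 and Atp6v0d2 in 10 and Atp6v0b in 9. Mcoln2 lost its call in 13 of these fits, Atp6v1e1 in 11, and Tpp1 and Pla2g15 in 6 each, with adjusted p up to 0.109 in all 8 genes. Tfe3 lost it without Control for On T library 3 (adjusted p = 0.0507) and with limma on TPM (adjusted p up to 0.143). Limma on TPM also did not call Atp6v0a1, Tpp1 and Pla2g15 for the difference. On log2(TPM + 0.1) but not log2(TPM + 1), it did not call Grn (adjusted p = 0.0646), Atp6v0d2 and Mcoln2. Over all alternatives, the adjusted p reached 0.280 for Tpp1 and 0.239 for Atp6v0a1. The number of members called was 14 without Control for On T library 1, without Control for On T library 3 or without Post T library 3. Mcoln3 was not called for a difference (log2 1.51, SE 0.56, adjusted p = 0.196) but was without Control for Post T library 3 (log2 2.03, adjusted p = 0.035).

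Between the older and younger controls, 0 members were called by edgeR, and 0% of all genes were. Over all genes, 1892 had an unadjusted p below 0.05, and DESeq2 called 135 higher and 44 lower. At that unadjusted p, 8 members were higher in the older controls (15.1%), against 5.32% of all genes, and 0 lower, against 4.73%. DESeq2 called 2 members higher (3.77%), Atp6v0d2 and Mcoln3, against 0.717% of all genes. By limma on log2(TPM + 1), 0 members and 0 of all genes were called. The older controls lay above the younger ones without overlap for 4 members, where 3.28% of all genes did so. The members with the smallest p were Atp6v0d2 (log2 1.54, SE 0.25, adjusted p = 0.0682), Mcoln3 (log2 1.58, SE 0.44, adjusted p = 0.244) and Acp5 (log2 0.76, SE 0.27, adjusted p = 0.327). Atp6v0d2 was thus at 22.4 ± 6.82 CPM in the older controls and 7.64 ± 2.36 in the younger ones (SD, n = 4), and it passed the threshold without Control for On T library 1 (log2 1.68, adjusted p = 0.0497).

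Further enzymes and membrane proteins of the lysosome, taken from lists, also rose Post T. For this and the list counts below, 7.49% of all genes tested rose and 4.81% fell Post T. On T, 4.24% of all genes rose and 5.03% fell. Of 28 other lysosomal hydrolases, 18 rose Post T and 4 On T; the smallest p values Post T were those of Pld3, a lysosomal nuclease (log2 1.53, SE 0.12, adjusted p = 2.38e-07), and the gene of acid lipase, Lipa (log2 1.6, SE 0.13, adjusted p = 3.35e-07). Of 12 cathepsins, the lysosomal proteases, 8 rose Post T and 3 On T, led Post T by Ctsb (log2 1.73, SE 0.14, adjusted p = 3.18e-07) and Ctsd (log2 2.04, SE 0.17, adjusted p = 5.19e-07). Of 23 other lysosomal membrane proteins, 9 rose Post T, among them Slc15a3, a peptide and histidine transporter (log2 2.55, SE 0.20, adjusted p = 3.14e-07), and Slc11a1, a metal ion transporter of phagosomes (log2 2.5, SE 0.21, adjusted p = 4.96e-07), and 6 rose and 1 fell On T. Of 10 other V-ATPase subunits 6 were tested, and 2 rose and 1 fell Post T. Tcirg1, the a subunit of osteoclasts and immune cells, rose by 1.48 (SE 0.15, adjusted p = 2.92e-06), and Atp6v0e2 fell by 1.5 (SE 0.36, adjusted p = 0.00959).

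Genes that act around the lysosome were read against the 7.49% of all genes that rose Post T. Of 14 genes that sort enzymes to lysosomes, 2 rose Post T (14.3%), Sort1 (log2 0.46, SE 0.093, adjusted p = 0.00259) and Nagpa (log2 0.42, SE 0.10, adjusted p = 0.00763). Of 20 autophagy genes, 2 rose Post T (10%), a share near that of all genes: Rab7 (log2 0.41, SE 0.072, adjusted p = 0.000722) and Vps18 (log2 0.37, SE 0.077, adjusted p = 0.00305), and 1 rose and 3 fell On T. Of 18 genes of nutrient signalling to the TFE factors, 6 rose Post T (33.3%), led by Fnip2, a partner of folliculin (log2 1.58, SE 0.16, adjusted p = 2.75e-06), and Tfec, the fourth gene of the TFE family (log2 2.14, SE 0.34, adjusted p = 0.000321), and 1 rose and 1 fell On T. Whether these proportions differ between lists was not tested.

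In sum, macrophage markers were higher in the same libraries. Of 20 markers, 14 rose (70%) and 2 fell Post T, against 7.49% and 4.81% of all genes. On T, 6 rose (30%) and 1 fell, against 4.24% and 5.03% of all genes. The 2 that fell Post T are not among those named below. The 20 markers ranged in log2 fold change from -1.92 to 4.12 Post T and from -1.12 to 2.68 On T. Their summed level was 503 to 710.3 TPM in the younger controls and 828 to 1572 On T, and 770.4 to 1630 in the older controls and 5308 to 7395 Post T. Neither comparison overlapped. Gpnmb, a glycoprotein of lipid-laden macrophages, was at 110 ± 40.9 CPM in the older controls and 1917 ± 313 Post T, and Cd68, a macrophage glycoprotein of the lysosome that is also among the 23 membrane proteins above, at 26.6 ± 5.95 and 162 ± 41 (SD, n = 4). Csf1r, the receptor for the macrophage growth factor CSF1, was at 41.6 ± 7.77 and 85.4 ± 16.1 CPM (log2 1.04, SE 0.16, adjusted p = 0.000253). Adgre1, which encodes the macrophage surface receptor known as F4/80, was at 16 ± 4.9 and 22.6 ± 0.542 CPM (log2 0.50, SE 0.19, adjusted p = 0.121).

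Other marker lists were read in the same way. A list of osteoclast and multinucleated macrophage genes, of which 5 of 10 were tested, summed to 64.7 to 99.7 TPM in the older controls and 177 to 215 Post T. In the younger cohort the sums were 62.3 to 67.9 TPM in controls and 70.9 to 111 On T. In CPM the younger groups overlapped, at 140.2 to 195.5 in controls and 121.8 to 199 On T. Of the 5 tested genes, 2 were called higher On T. Of the 5, 3 rose Post T: Ctsk by 1.09 (SE 0.12, adjusted p = 5.79e-06), Mmp12 by 2.08 (SE 0.29, adjusted p = 9.8e-05) and Nfatc1 by 0.58 (SE 0.18, adjusted p = 0.0414). Itgb3 and Mmp9 did not pass the test, at log2 -0.53 (SE 0.20, adjusted p = 0.109) and -0.34 (SE 0.26, adjusted p = 0.509), and Dcstamp, Ocstamp, Calcr, Oscar and Siglec15 were too low to test. Lymphocyte markers summed to 5.03 to 8.1 TPM in the older controls and 15.7 to 19.7 Post T. Markers of kidney-type intercalated cells, which use Atp6v0d2, summed to 0.52 to 1.28 TPM in the younger controls, 1.71 to 2.42 On T, 0.600 to 1.14 in the older controls and 1.01 to 1.72 Post T, low in every library but apart On T. In CPM the sums were also apart Post T, at 0.906 to 1.125 in controls and 1.354 to 2.081 Post T. The list's 1 tested gene, Atp6v1b1, is also among the other V-ATPase subunits above. It rose by 1.13 (SE 0.25, adjusted p = 0.0075) On T and 0.89 (SE 0.26, adjusted p = 0.0296) Post T. The summed level of all 53 members was 5233 to 5700 TPM in the younger controls, 4530 to 5125 On T, 5516 to 6096 in the older controls and 7949 to 9112 Post T. The sum was lower in each On T library than in its controls, but Lgmn and Gm2a carried most of that gap, with means of 268 ± 79.9 and 227 ± 127 TPM in the younger controls and 66.8 ± 8.65 and 40.9 ± 5.52 TPM On T (SD, n = 4). Without these 2 genes, left out after their values were seen, the sum was 4920 to 5027 TPM in the younger controls and 4440 to 5013 TPM On T, which overlapped. The proton pump class, which holds neither gene, was nevertheless lower On T in TPM, at 1519 to 1575 in the younger controls and 1373 to 1497 On T. In CPM its sums overlapped, at 1279 to 1436 in controls and 1182 to 1349 On T. The part of macrophage content in the lysosomal values was not tested.

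**Figure D4:**
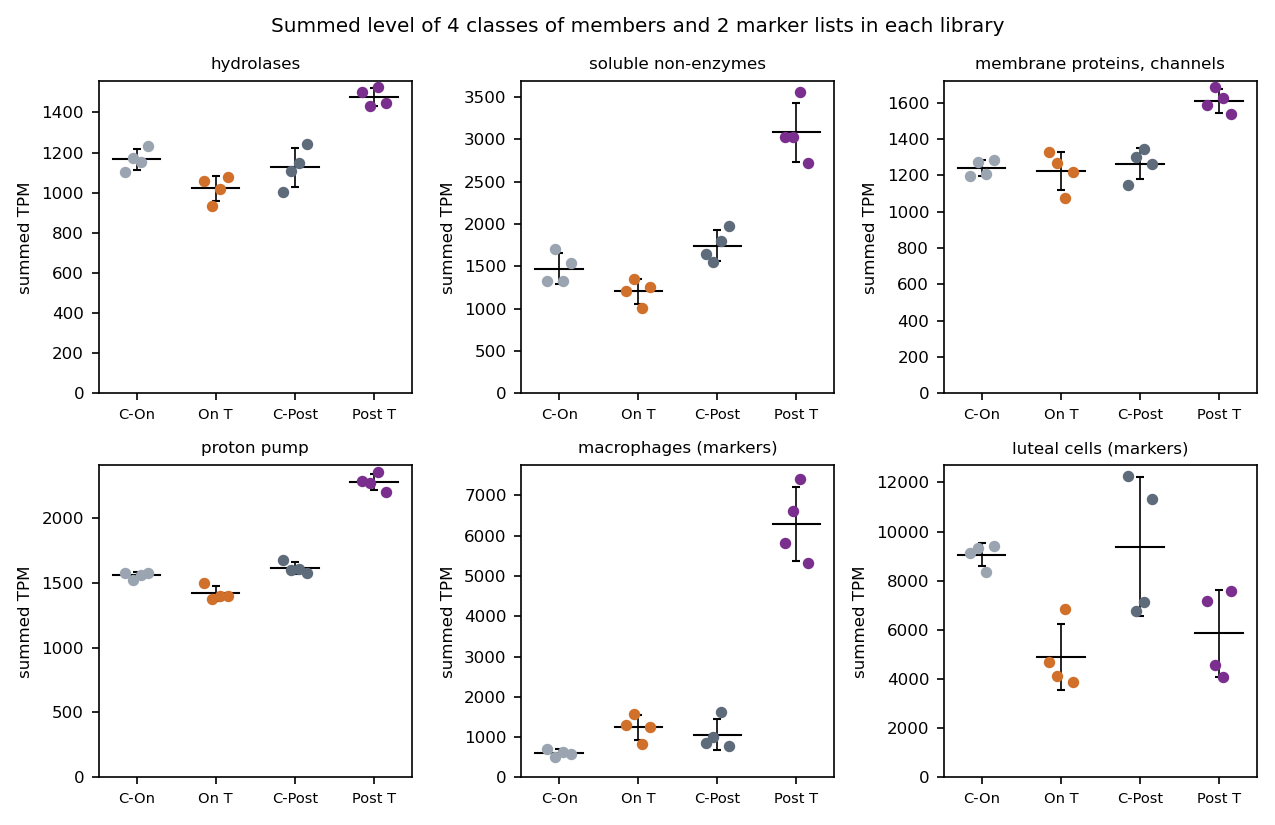
Summed TPM (y axes, from 0) of 4 classes of members and of macrophage and luteal marker lists in each of the 16 libraries (points), by group, with mean and SD in black. These 4 classes and the macrophage markers are higher in each Post T library than in its controls, and the class of TFE regulators, which overlapped, is not plotted. Hydrolases, the proton pump and luteal markers are lower in each On T library than in its controls.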

How the data were processed

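The deposited gene table holds RSEM expected counts and a second one TPM for 16 libraries. Per the submitters' processing notes, tools included cutadapt 2.3, FastQC 0.11.8, STAR 2.7.8a and RSEM 1.3.3 with GRCm38, and per the labels' protocols poly-A RNA was made into libraries with a directional kit and sequenced in pairs. The gene annotation they used, and whether counting was by strand, are not given in the sources used here. The deposited expected counts were whole numbers (100%) and were used as such, and the deposited TPM values were used to compare genes.

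The counts were fitted in edgeR 4.0.16 (R 4.3.3) with TMM scaling, filterByExpr (minimum count 10) and a quasi-likelihood F test over all 16 libraries with 1 mean per group, Benjamini-Hochberg adjusted over 18833 genes at 0.05. SE is the size of the log2 fold change divided by the root of F. The script was tested on simulated data. A count of 3 was 0.0571 to 0.117 CPM, depending on depth. Alternatives used DESeq2 1.42.0, limma 3.58.1 on log2(TPM + 1) and log2(TPM + 0.1), other filters and scalings, fits on 8 libraries, an age term, a replicate block and the omission of single libraries. Locations came from GENCODE M21 gene models for GRCm38, in which 55240 of 55426 identifiers matched, and promoters from the RefSeq table.

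The members and lists were chosen with earlier results of these data known. Values in every library are given for 18 listed members, the 3 with the smallest p in each contrast and called members that went against most calls. From each other pathway list, up to 2 genes with the smallest p Post T are named. Ctns without 1 On T library, Atp6ap2, Atp6v1d, Atp6v0e and Atp6v1h values, Ctsk, Mmp12, Nfatc1, Itgb3 and Mmp9 were chosen after their values were seen.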

Additional observations from a re-analysis of the deposited data

Results flagged for a closer look

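In a group of 4 libraries, a library was singled out where its gap to the nearest other library took up more of the group's range than Dixon's test allows. This occurred in 17 of 212 groups of values, and chance gives about 5%. Post T library 3 was apart from the others of its group for Hexa at 321 CPM (others 244 to 255), Gla at 51.3 CPM (others 47.5 to 47.9), Mcoln1 at 43.5 CPM (others 36.6 to 37.6), Atp6v0e at 104 CPM (others 86.7 to 89.4), Atp6v1a at 165 CPM (others 176 to 177). Post T library 4 was apart from the others of its group for Ppt1 at 173 CPM (others 154 to 157), Atp6v0a1 at 111 CPM (others 124 to 126), Atp6ap1 at 152 CPM (others 163 to 164). Control for On T library 3 was apart from the others of its group for Acp2 at 66.4 CPM (others 61.1 to 62.0), Atp6v1d at 55.3 CPM (others 52.0 to 52.3). On T library 3 was apart from the others of its group for Acp5 at 8.35 CPM (others 13.7 to 14.5), Lamp1 at 493 CPM (others 550.1 to 553). Control for Post T library 1 was apart from the others of its group for Scarb2 at 129 CPM (others 161 to 166), Atp6v0e at 98.4 CPM (others 68.1 to 72.1), Atp6v1d at 65.3 CPM (others 51.0 to 53), Atp6ap2 at 115 CPM (others 67.6 to 69.6). Post T library 1 was apart from the others of its group for Atp6v1h at 87.5 CPM (others 81.8 to 82.4).

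The Post T effect exceeded the On T effect, by the edgeR test of the difference, for 22 members. On the log2 scale the difference was Gla 1.23, Gusb 0.71, Man2b1 0.73, Pla2g15 0.78, Lgmn 1.85, Tpp1 0.49, Acp5 2.16, Psap 1.32, Grn 0.67, Lamp1 0.55, Mcoln2 1.22, Tfe3 0.50, Atp6v0d1 0.55, Atp6v0d2 1.39, Atp6v0a1 0.52, Atp6v0b 0.62, Atp6v0c 0.97, Atp6v0e 0.57, Atp6v1a 0.78, Atp6v1b2 0.97, Atp6v1c1 0.80 and Atp6v1e1 0.61.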

How the results depend on the processing

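Of 62 called results, 17 lost their call under at least 1 alternative, 142 of 1270 values, and 0 reversed. These were 1 of 7 On T calls, 6 of 33 Post T calls and 10 of 22 calls of a difference between the effects. Results that were not called were followed only for the members whose values in every library are given under the stated rule. Of the 1068 values of these results, 14 passed the threshold. They were those of Hexa and Mcoln3 for the difference, Ctns On T, and Atp6v0d2 and Mcoln3 between the controls. Uncalled results of other members could pass as well, as the counts that follow show. The number of members higher On T was 3 and became 6 with DESeq2, the cause of which was not tested. The number higher in the older controls was 0 and became 1 with no filter, 2 with DESeq2 and 1 without Control for On T library 1. Leaving out 1 library at a time gave 28 to 36 members higher Post T, with 2 lower in each fit, 3 to 4 higher and 3 to 4 lower On T, 0 to 1 higher between the controls, and 14 to 24 higher for the difference. Same-numbered libraries did not deviate together in every pair (r from -0.019 to 0.23), so the numbers were not taken as pairs, and 2 of 8 testosterone libraries correlated best with the control of their own number. With a replicate block, 3 members were higher and 5 lower On T, 32 higher and 2 lower Post T, 20 higher for the difference and 0 between the controls. Leaving out On T library 2 and Control for Post T library 1 together, chosen after seeing the data, gave 4 higher and 5 lower On T, 38 higher Post T and 24 higher for the difference. Depth limits Mcoln3 most, with 2 to 11 counts per library in the younger controls.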
